A study of Mus musculus with 36 samples.

Results

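The genes described are 8 that encode neutrophil surface receptors or their adaptor, Trem1, Csf3r, Cxcr2, Fpr1, Fpr2, Clec4d, Clec4e and Tyrobp, together with G0s2, which encodes an intracellular inhibitor of fat breakdown. They are a list of named genes, chosen, like the other gene lists below, with earlier results of these data known. Transcript rows were matched to mouse gene symbols, and the row with the highest total was kept for each gene, which gave these 9 genes among 16812. All 9 passed the filter on low counts, as did 11953 genes in all.

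The libraries were made from the peripheral blood of Townes mice, a humanised sickle cell strain in which human alpha and sickle beta globin genes stand in place of the mouse ones. All groups carried this background, and no group without sickle disease was included. Mice received cholesterol-modified MIR29B or a scrambled control oligonucleotide by osmotic pump, at 2 or 3 mg/kg. The labels name weeks 0, 2 and 4 as the times of treatment, with blood drawn at those points. That gives 12 groups of 3 libraries (36 in all), or 6 libraries for each arm and week with both doses pooled. Total RNA was depleted of alpha and beta globin transcripts before sequencing. The sources used here do not say whether week 0 blood was drawn before the first dose, what age the mice were, or whether libraries of different weeks came from the same animals, so the p-values measure the spread between these samples. The samples are labelled as erythrocytes. Erythroid genes were abundant (26 genes summed to between 110000 and 269000 CPM, counts scaled to library size), and the RNA also held white cell transcripts: 12 of 14 neutrophil markers were counted above the filter, and they summed to between 175 and 2930 CPM. Total counts per library ranged from 10700000 to 45650000 with a median of 29115000. Ribosomal RNA took over 5% of counts in 3 libraries, week 0 2 mg/kg scrambled replicate 1 and week 2 2 mg/kg MIR29B replicates 2 and 3, and between 1.39% and 15.05% over all libraries.

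Neutrophils are called from the marrow and kept alive by G-CSF, whose receptor is Csf3r. They follow ELR chemokines through Cxcr2 and formylated peptides from bacteria or mitochondria through Fpr1 and Fpr2. Trem1 amplifies Toll-like receptor responses, and Clec4d (MCL) and Clec4e (Mincle) bind microbial glycolipids, with Clec4e also sensing dying cells. These receptors have no signalling tail of their own. Trem1 pairs with the adaptor Tyrobp (DAP12), and Clec4d and Clec4e pair with the related Fc receptor gamma chain. G0s2 binds and inhibits adipose triglyceride lipase, the product of Pnpla2. Neutrophils are primed and activated in sickle cell disease, and monocytes share several of these receptors, among them Trem1, Clec4e, Fpr1, Fpr2 and Tyrobp.

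In the GENCODE annotation of GRCm38, Trem1 lies at chr17:48232768-48246924 on the plus strand and G0s2 at chr1:193272161-193273217 on the minus strand. Csf3r lies at chr4:126024550-126044440, Cxcr2 at chr1:74153989-74161246 and Tyrobp at chr7:30413760-30417585, all on the plus strand. Fpr1 (chr17:17876471-17883940, minus) and Fpr2 (chr17:17887824-17893952, plus) are neighbours. So are Clec4d (chr6:123262111-123275265, plus) and Clec4e (chr6:123281789-123289870, minus). Fpr1 and Fpr2 belong to a family of similar genes, so reads could be split among its members by the counting, and their values are less certain for that reason.

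The promoters of 4 of these genes are shown because their transcripts set up the main contrast in the data: Trem1, G0s2 and Clec4e had the largest fold changes from week 0 in the MIR29B arm, and Csf3r is the gene against which they are compared within each library. Each stretch is 300 bases of GRCm38.p6 from RefSeq, from 250 bases before to 50 after the start, printed 5′ to 3′ along the gene's strand. Capitals mark matches on either strand to AGGAAG (the core bound by PU.1, a myeloid transcription factor) or TTNNGCAA (a CCAAT/enhancer binding protein motif). The stretches are chr17:48232489-48232788 for Trem1, chr1:193273139-193273438 for G0s2, chr6:123289822-123290121 for Clec4e and chr4:126024409-126024708 for Csf3r.
Trem1: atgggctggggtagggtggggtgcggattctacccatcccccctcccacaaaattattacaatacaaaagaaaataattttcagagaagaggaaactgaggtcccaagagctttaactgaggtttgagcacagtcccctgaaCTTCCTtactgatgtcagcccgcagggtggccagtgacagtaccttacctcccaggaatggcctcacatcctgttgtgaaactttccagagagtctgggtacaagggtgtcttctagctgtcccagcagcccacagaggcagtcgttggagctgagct
G0s2: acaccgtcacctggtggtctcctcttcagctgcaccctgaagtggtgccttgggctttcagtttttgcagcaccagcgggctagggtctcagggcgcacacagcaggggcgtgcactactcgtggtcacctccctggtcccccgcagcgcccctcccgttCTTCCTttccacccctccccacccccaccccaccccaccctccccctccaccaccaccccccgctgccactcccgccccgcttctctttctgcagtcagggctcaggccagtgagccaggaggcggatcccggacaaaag
Clec4e: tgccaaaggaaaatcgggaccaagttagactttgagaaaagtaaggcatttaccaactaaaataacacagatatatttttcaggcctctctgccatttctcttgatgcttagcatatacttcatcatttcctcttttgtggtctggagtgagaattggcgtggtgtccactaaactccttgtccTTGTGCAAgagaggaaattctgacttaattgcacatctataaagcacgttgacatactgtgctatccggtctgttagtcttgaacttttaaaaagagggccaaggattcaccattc
Csf3r: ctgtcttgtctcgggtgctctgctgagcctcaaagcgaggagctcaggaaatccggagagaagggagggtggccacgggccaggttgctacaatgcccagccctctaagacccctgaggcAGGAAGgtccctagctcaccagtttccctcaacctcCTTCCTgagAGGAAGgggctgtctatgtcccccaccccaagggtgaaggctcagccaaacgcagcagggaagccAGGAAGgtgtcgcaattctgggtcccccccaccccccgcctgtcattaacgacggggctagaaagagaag
A PU.1 core was found in 5 of the 8 members with a RefSeq promoter (Csf3r with 4 matches, Cxcr2 with 2, and Trem1, G0s2 and Clec4d with 1 each), where 35.4% of 32851 promoters of this length held one. The CCAAT/enhancer binding protein motif was found in Clec4e alone among the 8, against 10.8% of all promoters. The AP-1 motif TGANTCA (7.81% of promoters) was in none of the 8. No match overlapped another in these promoters, and a match is a run of letters, not a shown binding site.

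The treatment is named after miR-29b, and the mouse mature strand from RefSeq is shown to read it against the members, with its seed (bases 2 to 8) in capitals. The sources used here do not give the sequence of the oligonucleotide that the mice received.
mmu-miR-29b-3p: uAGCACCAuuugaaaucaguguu
The letters that pair with this seed, TGGTGCT, occurred once in the annotated 3′ UTR of Trem1 (2276 bases) and in none of the other 8 members. Over all annotated transcripts with a 3′ UTR, 10.4% (5435 of 52036) held these letters.

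Per kilobase of transcript, Tyrobp was the most abundant of the 9, with a median of 131 CPM per kb over the 36 libraries. Csf3r followed at 31.4, Clec4d at 18.1, G0s2 at 15.1 and Cxcr2 at 14. Trem1 (10.6), Clec4e (8.84) and Fpr2 (8.71) were close to each other, and Fpr1 was lowest at 3.48. Every gene overlapped its neighbour in this order in its range over libraries. Among the 36 libraries G0s2 ran from 0.764 to 72.6 CPM, a 95.0-fold range, and Trem1 from 2.36 to 100 CPM, a 42.6-fold range. The range of the other 7 genes was between 8.64-fold (Tyrobp) and 19.9-fold (Fpr1).

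**Figure D1:**
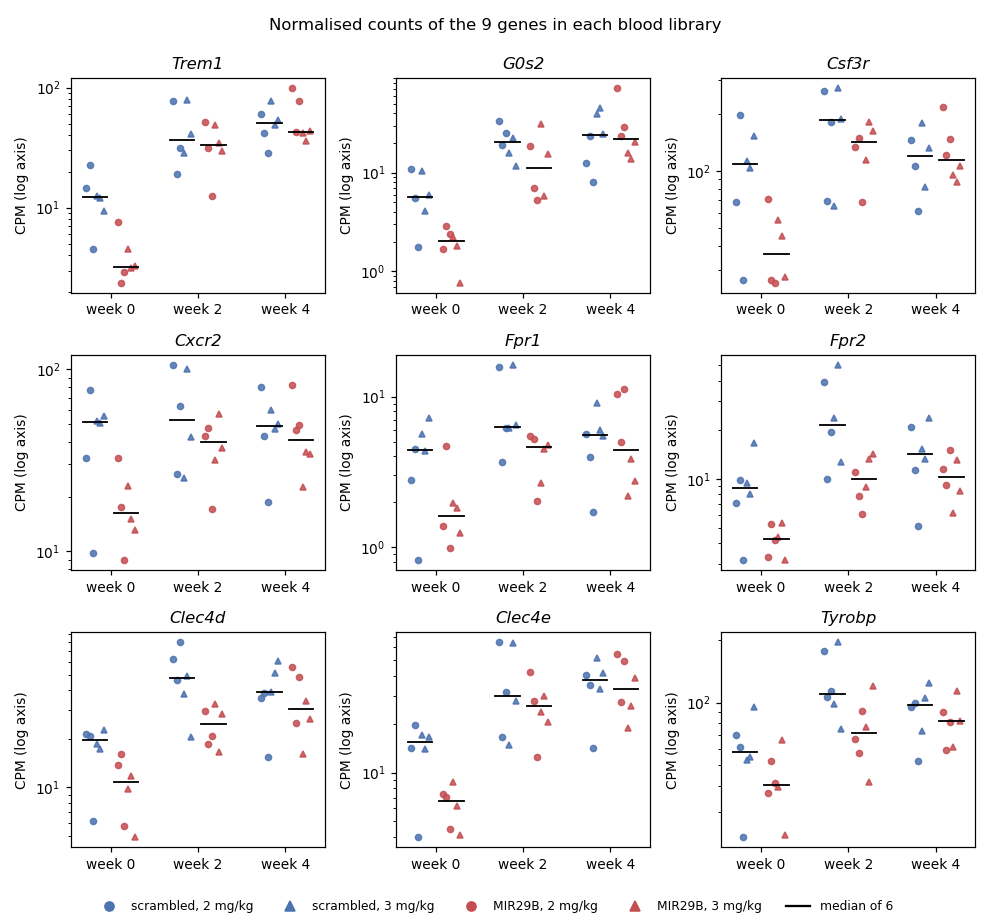
Level of each gene in each library as CPM on a log axis, by week on the x axis. Colour gives the arm, marker shape the dose, and the black bar the median of the 6 libraries of an arm and week. The 6 MIR29B libraries of week 0 hold Trem1 at 2.36 to 7.54 CPM, below every later library of that arm.

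Trem1 and G0s2 had the largest changes after week 0 of the 9 genes, in both arms. In the MIR29B arm Trem1 stood at 2.36 to 7.54 CPM (median 3.21) at week 0, at 12.5 to 51.4 (median 33.0) at week 2, and at 36.2 to 100 (median 42.9) at week 4 (6 libraries each). All 6 libraries of each later week lay above all 6 of week 0. Trem1 rose 8.65-fold by week 2 (log2 3.11 ± 0.40 SE, adjusted p = 1.26e-05, edgeR quasi-likelihood test, Benjamini-Hochberg over all genes tested) and 13.6-fold by week 4 (log2 3.77 ± 0.41, adjusted p = 4.66e-07). The scrambled arm held Trem1 at 4.55 to 22.6 CPM (median 12.3) at week 0, 18.9 to 78.3 (median 36.5) at week 2, and 28.7 to 76.6 (median 51.1) at week 4. There 5 of 6 libraries at week 2 and 6 of 6 at week 4 exceeded the highest week 0 library. The log2 changes were 1.86 ± 0.38 (adjusted p = 0.00892) and 2.01 ± 0.38 (adjusted p = 0.00553). Trem1 thus rose in the control arm too. It passed the test in every fit that left out 1 library in these 4 comparisons, and its week 2 value in the scrambled arm did not pass when only the groups compared were fitted (adjusted p = 0.167).

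G0s2 also rose at both later weeks of both arms. Its MIR29B levels were 0.764 to 2.88 CPM (median 2.03) at week 0, 5.30 to 30.8 (median 11.2) at week 2, and 13.9 to 72.6 (median 22.1) at week 4. Again no library of a later week overlapped week 0. The log2 change was 2.79 ± 0.44 at week 2 (edgeR adjusted p = 0.000199) and 3.78 ± 0.45 at week 4 (adjusted p = 2.01e-06). Scrambled libraries held 1.75 to 11 CPM (median 5.71) at week 0, 11.7 to 33.2 (median 20.6) at week 2, and 7.99 to 44.8 (median 24.2) at week 4. Of these, 6 of 6 at week 2 and 5 of 6 at week 4 lay above the highest week 0 library. The log2 changes were 1.69 ± 0.41 (edgeR adjusted p = 0.0227) and 1.85 ± 0.41 (adjusted p = 0.0251). The scrambled call at week 2 was lost without week 0 2 mg/kg replicate 3, week 0 3 mg/kg replicate 2 or week 2 2 mg/kg replicate 3. That at week 4 was lost in 7 of 12 fits with 1 library left out (adjusted p up to 0.127): without replicate 2 or 3 of either week 0 group, replicate 2 of either week 4 group, or week 4 3 mg/kg replicate 1.

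Clec4e rose with them in the MIR29B arm. Its levels there were 4.11 to 8.70 CPM (median 6.65) at week 0, 12.5 to 42.1 (median 25.9) at week 2, and 19.0 to 54.3 (median 33.1) at week 4, with no overlap between week 0 and either later week. The log2 changes were 2.05 ± 0.39 (edgeR adjusted p = 0.00174) and 2.46 ± 0.39 (adjusted p = 0.000138). Scrambled libraries held 3.96 to 19.9 CPM (median 15.5) at week 0, 14.9 to 64.9 (median 29.9) at week 2 (log2 1.36 ± 0.38, adjusted p = 0.0397) and 14.2 to 51.3 (median 37.6) at week 4 (1.31 ± 0.38, adjusted p = 0.148). That week 4 difference passed by DESeq2 (adjusted p = 0.0406) and by edgeR without the filter on low counts (adjusted p = 0.00577). The week 2 call was kept in the scrambled arm only without week 0 2 mg/kg replicate 2, week 2 2 mg/kg replicate 2 or week 2 3 mg/kg replicate 1 or 3, and lost in the other 8 such fits. Its neighbour Clec4d rose in the MIR29B arm by 1.26 ± 0.33 at week 2 (adjusted p = 0.0191) and 1.71 ± 0.33 at week 4 (adjusted p = 0.00157). MIR29B libraries held Clec4d at 4.87 to 16.0 CPM (median 10.8) at week 0, 16.6 to 32.7 (median 24.6) at week 2, and 16.1 to 55.8 (median 30.5) at week 4, also without overlap. Clec4d also rose at week 2 of the scrambled arm (1.42 ± 0.33, adjusted p = 0.0173) and its week 4 value was 1.13 ± 0.33 (adjusted p = 0.15, and 0.0273 without the filter). The week 2 calls of Clec4d were lost without replicate 3 of either week 0 group or week 2 2 mg/kg replicate 1 in the MIR29B arm. Those of the scrambled arm were lost without week 0 2 mg/kg replicate 3, week 0 3 mg/kg replicate 1 or 2, or week 2 2 mg/kg replicate 3.

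Tyrobp, the adaptor through which Trem1 signals, had the smallest differences of the 9 in the MIR29B arm. Its levels there were 23.3 to 66.3 CPM (median 40.3) at week 0, 41.8 to 120 (median 71.5) at week 2, and 59.1 to 114 (median 81.4) at week 4. Only 4 of 6 libraries exceeded the highest week 0 library at either week, and the log2 differences of 0.80 ± 0.31 (edgeR adjusted p = 0.131) and 0.91 ± 0.31 (adjusted p = 0.101) did not pass. Scrambled libraries held Tyrobp at 22.6 to 94.7 CPM (median 58.1) at week 0 and 75.1 to 195 (median 110) at week 2, a rise of 1.12 ± 0.31 (adjusted p = 0.0408). At week 4 it was at 52.6 to 124 CPM (median 97.9), a difference of 0.63 ± 0.31 (adjusted p = 0.51). The week 2 call was kept only without week 0 2 mg/kg replicate 1, week 0 3 mg/kg replicate 3, week 2 2 mg/kg replicate 2 or week 2 3 mg/kg replicate 3, and lost in the other 8 fits that left out a library.

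Among the growth factor and chemoattractant receptors, Csf3r and Fpr2 changed in part of the comparisons, and Cxcr2 and Fpr1 passed in none of these 4 by edgeR with the filter and all groups fitted. Csf3r, at 25.5 to 70.8 CPM (median 36.2) in MIR29B libraries of week 0, stood at 68.2 to 181 (median 142) at week 2 and 87.4 to 218 (median 113) at week 4. It rose by 1.68 ± 0.40 (edgeR adjusted p = 0.00978) and 1.58 ± 0.39 (adjusted p = 0.0182), with 5 and 6 of 6 libraries above the highest of week 0. The week 4 call was lost without week 0 2 mg/kg replicate 2 or 3, week 0 3 mg/kg replicate 3 or week 4 2 mg/kg replicate 1. Csf3r in scrambled libraries already reached 197 CPM at week 0 (26.6 to 197, median 108). Its later levels of 65.2 to 275 CPM (median 184) at week 2 and 61.0 to 179 (median 119) at week 4 overlapped that range (0.67 ± 0.39, adjusted p = 0.33, and 0.09 ± 0.39, adjusted p = 0.966).

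Cxcr2 passed in neither arm of that fit. Its MIR29B medians were 16.3, 40.1 and 40.7 CPM over the 3 time points, with differences from week 0 of 1.08 ± 0.41 (edgeR adjusted p = 0.12) and 1.22 ± 0.41 (adjusted p = 0.095). Its scrambled medians were 51.1, 52.4 and 48.7 CPM (0.40 ± 0.41 and 0.12 ± 0.40, adjusted p = 0.609 and 0.958). Fpr2 held 3.15 to 5.37 CPM (median 4.27) in MIR29B libraries of week 0, 6.08 to 14.3 (median 10) at week 2 and 6.13 to 15 (median 10.3) at week 4, with no overlap. It rose by 1.24 ± 0.36 (adjusted p = 0.038) and 1.29 ± 0.36 (adjusted p = 0.0413). The week 2 call was lost in 8 of 12 fits that left out a library: without replicate 1 or 3 of either week 0 group, week 2 2 mg/kg replicate 1 or 2, or week 2 3 mg/kg replicate 2 or 3. The week 4 call was kept only without week 4 2 mg/kg replicate 2 or week 4 3 mg/kg replicate 1, and lost in the other 10. Scrambled libraries had Fpr2 at 3.15 to 16.5 CPM (median 8.75) at week 0, 9.93 to 50.3 (median 21.5) at week 2 (1.56 ± 0.36, adjusted p = 0.0173) and 5.14 to 23.7 (median 14.2) at week 4 (0.75 ± 0.36, adjusted p = 0.502). That week 2 call was lost without week 0 2 mg/kg replicate 3 or week 0 3 mg/kg replicate 1 or 2. Fpr1, the least abundant, had medians of 1.60, 4.64 and 4.41 CPM in the MIR29B arm and 4.41, 6.33 and 5.56 in the scrambled arm. Its differences from week 0 were 1.08 ± 0.42 and 1.38 ± 0.42 in the MIR29B arm (adjusted p = 0.132 and 0.0632) and 1.21 ± 0.41 and 0.36 ± 0.41 in the scrambled arm (adjusted p = 0.0881 and 0.825). Some other fits called both genes. Without the filter on low counts Cxcr2 passed at both weeks of the MIR29B arm (edgeR adjusted p = 0.0189 and 0.0055), and Fpr1 at week 4 of that arm (0.00875) and week 2 of the scrambled arm (0.0201). DESeq2 called Fpr1 in the same pair (adjusted p = 0.0334 and 0.049). With only the groups compared, both passed at week 4 of the MIR29B arm (edgeR adjusted p = 0.0258 for Cxcr2 and 0.038 for Fpr1). Single libraries decided some of these values too. Without week 0 2 mg/kg MIR29B replicate 2, Fpr1 passed at both weeks of the MIR29B arm (adjusted p = 0.0314 and 0.0128). It also passed at week 2 of the scrambled arm without week 2 2 mg/kg scrambled replicate 2 (adjusted p = 0.0454), and Cxcr2 passed at week 4 of the MIR29B arm without week 0 2 mg/kg MIR29B replicate 1 (adjusted p = 0.0417).

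**Figure D2:**
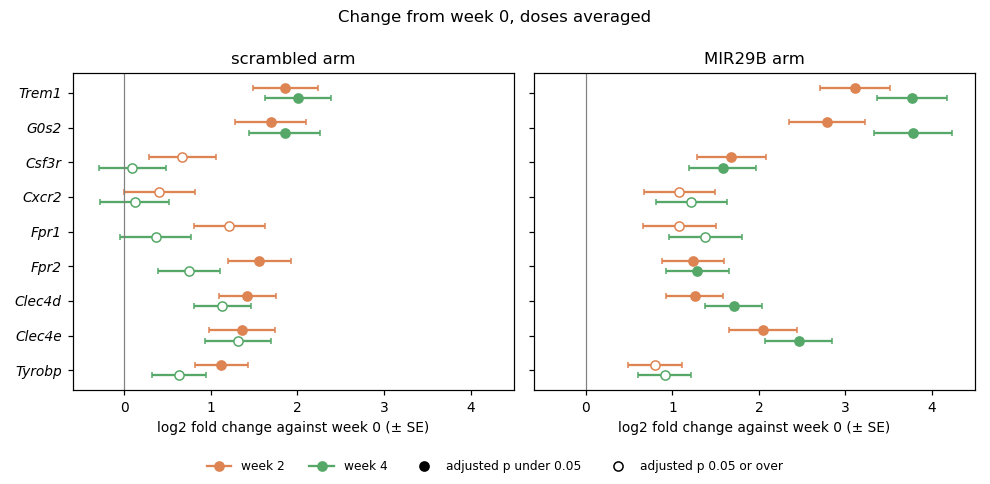
Log2 fold change of each gene against week 0 (x axis) with its standard error, at week 2 (orange) and week 4 (green), in the scrambled arm (left) and the MIR29B arm (right). Filled points have an adjusted p under 0.05. Trem1 and G0s2 lie farthest to the right in both arms, at 3.77 and 3.78 in the MIR29B arm at week 4.

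Counted together, 6 of the 9 genes rose by week 2 in the MIR29B arm, where 3.45% of all genes tested rose. At week 4 of that arm 6 of 9 rose, against 2.64% of all genes. In the scrambled arm 6 of 9 rose by week 2, against 2.11%, and Trem1 and G0s2 rose at week 4, against 0.36%. None of the 9 fell. The median log2 change of the 9 was 1.26, 1.58, 1.36 and 0.75 in these 4 comparisons, beside -0.05, -0.01, -0.01 and -0.05 over all genes tested. Both later weeks share the week 0 libraries of their arm, so the comparisons of an arm are not independent. The members were also chosen with earlier results of these data known, so their counts are not independent of that choice. The week 2 count in the scrambled arm was the least firm. It was 0 when only the groups compared were fitted, and it fell to 1 without week 0 2 mg/kg scrambled replicate 3 or week 0 3 mg/kg scrambled replicate 2, and to 2 without week 0 3 mg/kg scrambled replicate 1 or week 2 2 mg/kg scrambled replicate 3. Without the 3 libraries with over 5% ribosomal RNA the counts were 4, 5, 4 and 2 of 9.

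Neutrophil markers moved over the same weeks, and few of the 19 monocyte markers listed were called. Over all genes tested 3.45% and 2.64% rose at weeks 2 and 4 of the MIR29B arm, and 2.11% and 0.36% in the scrambled arm. Of 12 neutrophil markers tested (Csf3r and Cxcr2 among them) 6 rose at week 2 and 4 at week 4 in the MIR29B arm, and 4 and 1 in the scrambled arm. Their summed level in the MIR29B arm was 175 to 599 CPM (median 325) at week 0, 772 to 1690 (median 929) at week 2 and 564 to 1270 (median 840) at week 4. Scrambled libraries held sums of 193 to 1220 (median 640), 869 to 2930 (median 2090) and 448 to 1670 (median 1050) at the same weeks. Elane, made only in marrow precursors, was at 0 counts in all week 0 libraries of both arms and all week 4 scrambled libraries, and Mpo in the week 0 scrambled libraries. The monocyte markers summed to between 362 and 664 CPM (median 459) at week 0, 344 to 761 (median 494) at week 2 and 623 to 871 (median 748) at week 4 of the MIR29B arm. The scrambled arm had sums from 315 to 1070 (median 605), then 425 to 2050 (median 727), then 524 to 1180 (median 735). Of 19 monocyte markers 1 and 2 rose at weeks 2 and 4 in the MIR29B arm with none in the scrambled arm. Cd14, which monocytes also carry, was counted with the neutrophil receptors instead. It rose at weeks 2 and 4 of the MIR29B arm (2.76 ± 0.41 and 3.33 ± 0.42, edgeR adjusted p = 0.00012 and 4.18e-06). In the scrambled arm it rose by 1.91 ± 0.4 and 2.15 ± 0.4 (edgeR adjusted p = 0.0108 and 0.00516). In bulk blood, more cells of a type and more RNA per cell cannot be told apart, and the part of cell numbers in the members' changes was not tested.

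Members also differed in how far they moved relative to Csf3r. The ratio of a member to Csf3r within a library does not depend on how that library was scaled. For this measure 1 count was added to each gene, and the 6 libraries of a later week were compared with the 6 of week 0 by a two-sided exact permutation test, for which the smallest possible p is 0.00216. The ratio was chosen after the data had been seen, and 32 such tests were run on the 8 other members, all sharing Csf3r. Of these, 9 had a Benjamini-Hochberg adjusted p under 0.05. Genes outside the members were not set against Csf3r, so no share over all genes stands beside this count.

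Trem1 gained on Csf3r in both arms and at both weeks. In the MIR29B arm the log2 ratio was -3.81 to -3.06 (median -3.32) at week 0, -2.46 to -1.23 (median -2.31) at week 2, and -1.50 to -0.93 (median -1.23) at week 4. The mean difference was 1.34 ± 0.26 (SE) at week 2 and 2.15 ± 0.14 at week 4, with all 6 libraries above all of week 0 each time (p = 0.00216, adjusted p = 0.0115, exact permutation test). Among scrambled libraries the ratio was -4.01 to -2.22 (median -3.11) at week 0, -2.52 to -1.20 (median -1.84) at week 2, and -1.35 to -0.74 (median -1.25) at week 4. The differences were 1.13 ± 0.31 (p = 0.00433, adjusted p = 0.0198, exact permutation test) and 1.86 ± 0.27 (p = 0.00216, adjusted p = 0.0115), with 5 and 6 of 6 libraries above the highest of week 0. Without any 1 library the Trem1 differences ranged from 0.94 to 2.21.

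Clec4e and G0s2 gained on Csf3r by week 4. The G0s2 ratio had medians of -4.59 at week 0, -3.53 at week 2 and -2.36 at week 4 in the MIR29B arm, and -4.26, -2.91 and -2.30 in the scrambled arm. Its week 4 differences were 2.04 ± 0.40 (adjusted p = 0.0115, exact permutation test, 6 of 6 libraries above week 0) and 1.72 ± 0.53 (adjusted p = 0.0385, 4 of 6), while the week 2 differences of 0.83 ± 0.58 and 1.18 ± 0.51 did not pass (adjusted p = 0.25 and 0.127). For Clec4e the week 4 differences were 0.77 ± 0.23 in the MIR29B arm (adjusted p = 0.0385, exact permutation test, 3 of 6) and 1.13 ± 0.19 in the scrambled arm (adjusted p = 0.0115, 6 of 6). Its week 2 differences were 0.25 ± 0.25 and 0.59 ± 0.20 (adjusted p = 0.393 and 0.0504).

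Cxcr2 fell relative to Csf3r at week 2 of the MIR29B arm. Cxcr2 itself was 1.08 ± 0.41 higher there (edgeR adjusted p = 0.12), a smaller difference than that of Csf3r (1.68 ± 0.4). Its log2 ratio to Csf3r was -1.57 to -0.59 (median -1.19) at week 0 and -2.12 to -1.64 (median -1.76) at week 2, with no overlap. The difference was -0.64 ± 0.17 (p = 0.00216, adjusted p = 0.0115, exact permutation test). At week 4 it was -0.37 ± 0.18, and in the scrambled arm -0.28 ± 0.15 and -0.03 ± 0.17, none of which passed (adjusted p between 0.143 and 0.89). No ratio of Fpr1, Fpr2, Clec4d or Tyrobp passed. The nearest was Clec4d at week 4 of the scrambled arm (0.92 ± 0.33, adjusted p = 0.0504). Fpr2 at week 2 of the scrambled arm (0.76 ± 0.38) and Tyrobp at week 2 of the MIR29B arm (-0.95 ± 0.47) followed, each with an adjusted p of 0.143.

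**Figure D3:**
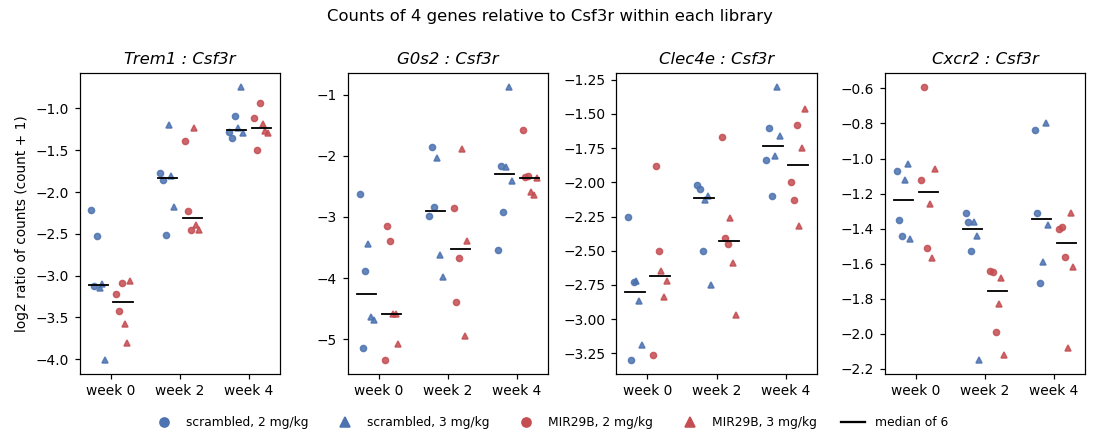
Log2 ratio of the counts of Trem1, G0s2, Clec4e and Cxcr2 to those of Csf3r in the same library, with 1 count added to each gene, by week on the x axis. Colour gives the arm, shape the dose and the black bar the median of 6. Trem1 climbs from medians of -3.32 and -3.11 at week 0 to -1.23 and -1.25 at week 4 in the MIR29B and scrambled arms.

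Between weeks 2 and 4 no member passed in either arm. All genes tested gave 0 calls there (0% called) by edgeR, with 1320 genes at an unadjusted p under 0.05 in the MIR29B arm and 1292 in the scrambled arm. DESeq2 called 0 of the 9 and 42 and 38 genes in all. At the unadjusted threshold 1 of the 9 genes was counted in the MIR29B arm and 2 in the scrambled arm. In the MIR29B arm G0s2 differed by 0.98 ± 0.40 (edgeR adjusted p = 0.383) and Trem1 by 0.66 ± 0.37 (adjusted p = 0.498). Fpr2 in the scrambled arm differed by -0.81 ± 0.35 (adjusted p = 0.4) and Fpr1 by -0.84 ± 0.41 (adjusted p = 0.456).

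The arms were set against each other at each week. At week 0 all 9 genes had lower means in the MIR29B arm, with a median log2 difference of -1.17 beside -0.05 over all genes. Each member's libraries overlapped between arms. The largest differences were G0s2 at -1.73 ± 0.43 (edgeR adjusted p = 0.258) and Trem1 at -1.65 ± 0.38 (adjusted p = 0.222), followed by Csf3r at -1.39 ± 0.39 (adjusted p = 0.421) and Cxcr2 at -1.32 ± 0.41 (adjusted p = 0.512). None passed: edgeR called 0 of 11953 genes (0% called), while 8 of the 9 members and 852 genes had an unadjusted p under 0.05. DESeq2 called 2 of the 9, Trem1 (adjusted p = 0.0156) and G0s2 (adjusted p = 0.0407), of 14 genes in all. Without the filter on low counts edgeR called 5 of the 9. With the filter it called 2 when week 0 2 mg/kg scrambled replicate 3 was left out, and 1 when week 0 2 mg/kg MIR29B replicate 1 was. Calls over all genes are not given here for the unfiltered and left-out fits, so these counts lack that share. Neutrophil markers had a median difference of -1.10 at week 0, monocyte markers -0.33 and B cell markers 0.50, and none of these markers passed.

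At week 2 the members' median was -0.64 (all genes -0.09), with Fpr2 lowest at -1.36 ± 0.36 (edgeR adjusted p = 0.156) and Trem1 at -0.41 ± 0.37 (adjusted p = 0.765). Of all genes 0% were called by edgeR, 4 of the 9 and 1175 genes had an unadjusted p under 0.05, and DESeq2 called Fpr2 (adjusted p = 0.0235) among 76 genes. At week 4 the median was -0.02 (all genes 0.03) and the 9 values lay between -0.49 and 0.20. There 0% were called, 0 of the 9 and 315 genes had an unadjusted p under 0.05, and DESeq2 called 0 genes.

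The fold changes of Trem1, G0s2 and Csf3r were larger in the MIR29B arm, where week 0 means were lower and later levels overlapped those of the scrambled arm. The difference between the arms in their change from week 0, tested directly, was 1.25 ± 0.53 for Trem1 at week 2 (edgeR adjusted p = 0.859) and 1.75 ± 0.53 at week 4 (adjusted p = 0.78). For G0s2 it was 1.10 ± 0.58 and 1.93 ± 0.58 (adjusted p = 0.889 and 0.78). For Csf3r it was 1.02 ± 0.55 and 1.49 ± 0.55 (adjusted p = 0.889 and 0.78). At week 4 it was above 0 for all 9 genes. At week 2 it was below 0 for 4 of them, Fpr1 (-0.13 ± 0.59), Fpr2 (-0.32 ± 0.50), Clec4d (-0.16 ± 0.46) and Tyrobp (-0.32 ± 0.44). None of the 9 passed at either week by edgeR or DESeq2, and 0% of all genes were called. The unadjusted p was under 0.05 for 1 and 4 of the 9, and for 671 and 721 genes.

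**Figure D4:**
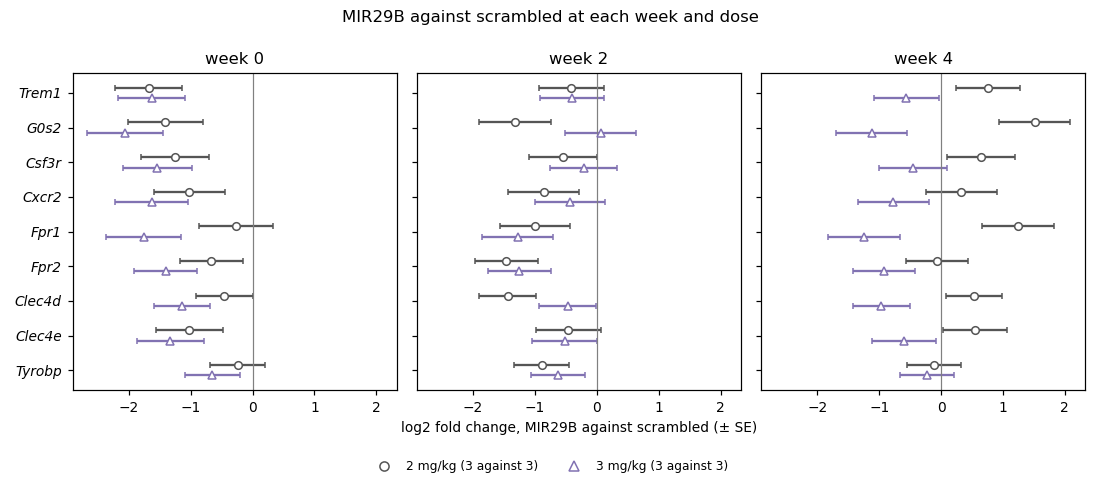
Log2 fold change of MIR29B against scrambled (x axis) with its standard error for each gene at weeks 0, 2 and 4, with 3 libraries against 3 at 2 mg/kg (grey circles) and at 3 mg/kg (purple triangles). No point passed the test. At week 0 all points lie below 0, and at week 4 G0s2 lies at 1.51 for 2 mg/kg and -1.12 for 3 mg/kg.

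The doses gave values on both sides of 0 at week 4. G0s2 at 2 mg/kg was at 72.6, 23.7 and 29.1 CPM with MIR29B and 12.4, 23.7 and 7.99 with the scrambled control. At 3 mg/kg it was at 15.8, 13.9 and 20.4 with MIR29B and 39.3, 44.8 and 24.7 with the control, so the 2 arms did not overlap at that dose. The same held there for Trem1, Cxcr2, Fpr1, Fpr2 and Clec4d, while Csf3r, Clec4e and Tyrobp overlapped. How many of all genes did not overlap was not counted. The log2 differences of G0s2 were 1.51 ± 0.58 and -1.12 ± 0.57, and the difference between doses was -2.62 ± 0.81 (edgeR adjusted p = 1). Fpr1 had 1.24 ± 0.58 at 2 mg/kg and -1.24 ± 0.58 at 3 mg/kg (difference -2.48 ± 0.82, adjusted p = 1), and Clec4d a difference between doses of -1.50 ± 0.65. No member and 0% of all genes passed, 3 of the 9 and 410 genes had an unadjusted p under 0.05, and DESeq2 called 0 genes. At week 2 the same difference between doses had 0 of the 9 and 688 genes at an unadjusted p under 0.05, with 0% called by edgeR and 0 genes by DESeq2. Within an arm, 3 against 2 mg/kg over weeks 2 and 4 also gave 0% called and 0 of the 9 members by edgeR and by DESeq2. With no adjustment, 1 of the 9 and 255 genes had a p under 0.05 in the MIR29B arm, and 0 of the 9 and 649 genes in the scrambled arm.

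Trem1 was the member called most often when week 2 was set against week 0 at single doses. With MIR29B it rose by 2.87 ± 0.56 at 2 mg/kg (edgeR adjusted p = 0.0141; 0.259% of all genes rose) and by 3.35 ± 0.57 at 3 mg/kg (adjusted p = 0.00537; 0.293% rose). G0s2 rose by 3.41 ± 0.63 at 3 mg/kg (adjusted p = 0.0069) and differed by 2.17 ± 0.61 at 2 mg/kg (adjusted p = 0.113). With the scrambled control Trem1 rose by 2.12 ± 0.54 at 3 mg/kg (adjusted p = 0.0274; 2.06% rose) and differed by 1.61 ± 0.53 at 2 mg/kg (adjusted p = 0.301; 0.00837% of genes called in either direction). With 3 libraries a group these calls rest on few samples: fitting only the groups compared gave 0, 4 and 0 members in these 3 comparisons. At 2 mg/kg with MIR29B, 0 were called without week 0 replicate 2 or 3 or week 2 replicate 1, and 2 without week 2 replicate 3. At 3 mg/kg with MIR29B, 0 were called without week 0 replicate 2 or 3, and 1 without week 2 replicate 1. At 3 mg/kg with the scrambled control, 0 were called without any of 5 libraries, and 2 without week 2 replicate 3.

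The genes whose course over the 36 libraries was most like that of a member were found by the mean absolute difference of centred log2 CPM. Nearest to Trem1 were Ets2 (0.29), Tlr2 (0.34), Cd14 (0.40), Per1 (0.44) and Cass4 (0.44), where the median over 11952 genes was 1.39. Among the members, Clec4e was the fourth nearest to Trem1 (0.44) and Csf3r ranked 110 (0.80). Nearest to G0s2 were Cd14 (0.52), Tlr2 (0.56), Cxcl2 (0.57), Marcksl1 (0.58) and Fosl2 (0.62), beside a median of 1.41, and Trem1 ranked 3 at 0.57. Nearest of all genes to Csf3r was Cxcr2 (0.26). Cd14 is the lipopolysaccharide co-receptor and Tlr2 the receptor for bacterial lipopeptides. These are likenesses of level across libraries that share their groups and depth, and no test is attached to them.

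Other genes of the same pathways were read from lists, in the 4 comparisons with week 0 and with doses averaged. There 3.45% and 2.64% of all genes rose at weeks 2 and 4 of the MIR29B arm, and 2.11% and 0.36% in the scrambled arm, with median log2 changes between -0.05 and -0.01. Of 35 further chemoattractant, cytokine and adhesion receptors of neutrophils, 11 rose at week 2 and 12 at week 4 in the MIR29B arm, and 5 and 2 in the scrambled arm, with none falling. Their median log2 change was 1.06 and 0.98 in the MIR29B arm, and 0.62 and 0.33 in the scrambled arm. At week 2 of the MIR29B arm Il1r2, the decoy receptor for interleukin-1, rose by 3.62 ± 0.54 (edgeR adjusted p = 0.000105) and Cd14 by 2.76 ± 0.41 (adjusted p = 0.00012). The complement receptor gene C5ar1 rose by 2.46 ± 0.37 (adjusted p = 0.000127), and Ccrl2, which encodes a chemerin-binding receptor, by 2.21 ± 0.34 (adjusted p = 0.000152). At week 2 of the scrambled arm Il1r2 (2.55 ± 0.5, edgeR adjusted p = 0.00642) and Cd14 (1.91 ± 0.4, adjusted p = 0.0108) rose too. C5ar1 (1.21 ± 0.35, adjusted p = 0.0509) and Ccrl2 (0.87 ± 0.33, adjusted p = 0.125) did not pass there.

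The ligands of the members were measured in the same RNA. Of 11 tested, 4 rose at week 2 and 5 at week 4 in the MIR29B arm (median log2 change 0.94 and 0.88), and 3 and 1 in the scrambled arm (1.10 and 0.65). Cxcl2, a ligand of Cxcr2, rose by 2.97 ± 0.54 at week 2 of the MIR29B arm (edgeR adjusted p = 0.00118) and Saa3, of the serum amyloid A family that acts on Fpr2, by 4.21 ± 0.88 (adjusted p = 0.00384). Saa3 was at 0 to 1.44 CPM (median 0.290) in the week 0 libraries of that arm, so the size of its fold is less certain. Pglyrp1, a peptidoglycan-binding protein reported as a Trem1 ligand, rose by 1.55 ± 0.42 (adjusted p = 0.0258). Cxcl1 was also called there (adjusted p = 0.00503), from 0 counts in the week 0 MIR29B libraries, so no fold is given. At week 2 of the scrambled arm Pglyrp1 (1.7 ± 0.42, edgeR adjusted p = 0.0245) and Saa3 (2.78 ± 0.75, adjusted p = 0.0382) rose too. Cxcl1 was called (adjusted p = 0.0434) and Cxcl2 did not pass (1.41 ± 0.51, adjusted p = 0.11).

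Signalling genes below the receptors had median log2 changes of 0.32 and 0.44 at weeks 2 and 4 of the MIR29B arm, and 0.37 and 0.08 in the scrambled arm. Among 20 adaptors and kinases below these receptors, such as Syk, Card9 and Plcg2, 1 rose at week 2 of the MIR29B arm and 2 in the scrambled arm, with none at week 4. These counts are read beside the 3.45% and 2.11% of all genes that rose at week 2. Bcl10 rose at week 2 of both arms (0.92 ± 0.25, edgeR adjusted p = 0.0245, with MIR29B and 0.93 ± 0.25, adjusted p = 0.0351, with the scrambled control). Among 20 other receptors that pair with Tyrobp or the Fc receptor gamma chain, 1 and 3 rose in the MIR29B arm at weeks 2 and 4, and 2 and 0 in the scrambled arm. Trem3, which lies beside Trem1, was the 1 at week 2 (1.47 ± 0.38, adjusted p = 0.0196), and it also rose in the scrambled arm (1.41 ± 0.38, adjusted p = 0.0369).

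Around G0s2, 2 of 10 lipolysis genes rose in the MIR29B arm by week 2. They were Pnpla2, its target lipase (1.52 ± 0.26, edgeR adjusted p = 0.000611), and Dgat2, which makes triglyceride (2.29 ± 0.56, adjusted p = 0.0127). At week 4 Dgat2 rose (2.69 ± 0.56, adjusted p = 0.00359) and Pnpla2 stood at 0.85 ± 0.26 (adjusted p = 0.0616). Dgat2 was low in the week 0 MIR29B libraries, at 0.340 to 1.83 CPM (median 0.545). None of the 10 passed in the scrambled arm with doses averaged, while 1 rose at week 2 there at 3 mg/kg. With doses averaged, Dgat2 differed by 1.77 ± 0.52 (edgeR adjusted p = 0.0509) and Pnpla2 by 0.73 ± 0.26 (adjusted p = 0.101) at week 2 of the scrambled arm. The median of the 10 was 0.34 and 0.40 at weeks 2 and 4 of the MIR29B arm, and 0.45 and 0.23 in the scrambled arm.

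Of 13 neutrophil transcription factors, 5 rose at each week in the MIR29B arm, and 3 and 1 in the scrambled arm. Nfil3 rose by 2.04 ± 0.36 (edgeR adjusted p = 0.000852) and Cebpb, of the CCAAT/enhancer binding protein family, by 1.80 ± 0.33 (adjusted p = 0.00133) at week 2 of the MIR29B arm. Junb rose by 1.12 ± 0.23 (adjusted p = 0.00342) and Spi1, which encodes PU.1, by 1.32 ± 0.34 (adjusted p = 0.0184). At week 2 of the scrambled arm Nfil3 (1.59 ± 0.35, edgeR adjusted p = 0.0129), Cebpb (1.53 ± 0.33, adjusted p = 0.0108) and Spi1 (1.39 ± 0.34, adjusted p = 0.0227) rose too. Junb did not pass there (0.66 ± 0.23, adjusted p = 0.0989). Of 23 granule and secreted genes 7 and 3 rose in the MIR29B arm and 9 and 0 in the scrambled arm, among them S100a9 at week 2 of both arms (1.58 ± 0.37, adjusted p = 0.0103, and 1.64 ± 0.38, adjusted p = 0.0171).

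Markers of other blood cells were read in the same 4 comparisons, in which 1.99% and 0.443% of all genes fell at weeks 2 and 4 of the MIR29B arm, and 1.10% and 0.10% in the scrambled arm. None of 19 T cell markers passed. B cell markers had 1, 2, 1 and 0 of 18 lower at weeks 2 and 4 of the MIR29B and then the scrambled arm, with median log2 changes of -0.27, -0.61, -0.37 and -0.49. Klra8 was the single NK cell marker called, lower at week 2 of the MIR29B arm (-2.96 ± 0.70, edgeR adjusted p = 0.00995). Of 10 eosinophil and basophil markers Hdc rose in the MIR29B arm (1.95 ± 0.39 at week 2, adjusted p = 0.00303, and 2.15 ± 0.39 at week 4, adjusted p = 0.00071). Of 16 platelet markers Rgs18 was lower at week 2 of the MIR29B arm (-1.33 ± 0.38, adjusted p = 0.0355) and of the scrambled arm (-1.55 ± 0.38, adjusted p = 0.0239). Of 26 erythroid genes 4 were higher and 1 lower at week 2 of the MIR29B arm, 2 higher at its week 4, 1 higher and 1 lower at week 2 of the scrambled arm, and 1 higher at its week 4. Slc2a1, the glucose transporter gene, was called in all 4, up by 1.57 ± 0.28 and 2.12 ± 0.28 in the MIR29B arm (adjusted p = 0.000843 and 7.05e-06) and by 1.42 ± 0.28 and 1.76 ± 0.28 in the scrambled arm (adjusted p = 0.00569 and 0.000702).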

How the data were processed

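RNA from peripheral blood was sequenced in 36 libraries. Reads were aligned with HISAT2 2.0.5 to GRCm38 and counted with featureCounts 1.5.0-p3, per the submitters' processing notes. The deposited values are raw read counts per RefSeq transcript in 25856 rows. All counts the authors deposited are even, so each fragment may have been counted as 2. Whether counting used strand is not given in the sources used here. Here 25650 rows were matched to symbols by RefSeq and 132 by GENCODE. The 74 rows without a symbol (1.04% to 10.07% of a library) were each kept as an entry of their own, among the 16812 genes. The highest row was kept per gene (Csf3r had 3 rows, Clec4d 2), leaving 6820000 to 31720000 counts per library. No 2 libraries were identical.

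Genes with low counts were removed by filterByExpr (minimum count 10, minimum total 15), libraries were scaled by TMM, and 12 group means were fitted in edgeR 4.0.16 (R 4.3.3), with a coefficient of variation between libraries of 0.5. Genes are called at an adjusted p under 0.05 within each of 25 comparisons. Standard errors come from the F statistic. On counts simulated for week 2 against week 0 of the MIR29B arm with doses averaged (11635 genes), 27 of 200 genes changed 2-fold and 139 of 200 changed 4-fold were recovered. DESeq2 1.42.0, other scalings and filters, blocks and left-out libraries were alternatives. Ratio tests used SciPy 1.17.1. The members and gene lists were chosen with earlier results of these data known. Beside the 9 members, up to 4 genes per list called at week 2 of the MIR29B arm, by smallest p, and the 5 genes most like Trem1 and G0s2 are named, and Syk, Card9, Plcg2, Elane and Mpo are mentioned outside that rule, as is Cxcl1 without a fold.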

Additional observations from a re-analysis of the deposited data

Results flagged for a closer look

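For each gene, the 6 libraries of an arm and week were examined for a highest or lowest library that stood far from the nearest of the others relative to the range of the group. Of 54 such groups 4 stood out, where chance gives about 1 in 20. G0s2 at week 4 was at 72.6 CPM in 2 mg/kg MIR29B replicate 1, with the next library at 29.1. Fpr1 at week 0 was at 4.71 CPM in 2 mg/kg MIR29B replicate 2, with the next at 1.97. Week 0 2 mg/kg scrambled replicate 3 was lowest for both C-type lectins, with Clec4d at 6.18 CPM (next 17.2) and Clec4e at 3.96 CPM (next 14.1).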

How the results depend on the processing

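Whether replicate numbers mark the same animals over weeks was not settled. Deviations from the group means had a median correlation of 0.034 between libraries of the same arm, dose and number (36 pairs, -0.409 to 0.33). Of 12 sets sharing arm, dose and number, 4 held both sexes by their Xist and Y-linked counts. Those sets cannot be the same animal at every week. The remaining sets may be, since each held a single sex and a low correlation cannot exclude pairing. With the replicate number as a block, 6, 7, 6 and 2 members were called in weeks 2 and 4 of the MIR29B arm and then the scrambled arm, and Clec4e in MIR29B against scrambled at week 4 turned to 0.07. With a block by arm, dose and number the counts were 5, 5, 4 and 2, and 0 for week 2 of the scrambled arm at 3 mg/kg.

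The number of members called moved by over 1.5 times in these cases. Fitting only the groups compared gave 0 for week 2 of the scrambled arm, and 0, 4 and 0 for week 2 with MIR29B at 2 and 3 mg/kg and the scrambled control at 3 mg/kg. Without a filter there were 4 at week 4 of the scrambled arm, 3, 5, 4 and 2 at week 2 by dose (MIR29B 2 and 3 mg/kg, scrambled 2 and 3 mg/kg), 2 for the difference between arms at week 4, 5 and 1 for MIR29B against scrambled at weeks 0 and 2, and 1 at week 0 at 3 mg/kg. DESeq2 gave 3, 5 and 2 at week 2 by dose (MIR29B 2 and 3 mg/kg, scrambled 2 mg/kg), and 2 and 1 for MIR29B against scrambled at weeks 0 and 2. Leaving out 1 library gave 1 to 7 and 1 to 2 at weeks 2 and 4 of the scrambled arm, 0 to 2 in each single-dose comparison with a call, and 0 to 2 for MIR29B against scrambled at week 0. Other counts stayed within 1.5 times, among them those with 1 library left out of weeks 2 and 4 of the MIR29B arm, which ran from 4 to 7 and from 4 to 6 (218 of 237 with all replicates, 238 of 264 with 1 left out). Over all genes, week 2 and 4 calls in the MIR29B arm were 650 and 369 by edgeR, 1095 and 782 by DESeq2, 777 and 735 without a filter, and 164 and 315 without libraries over 5% ribosomal RNA. In the scrambled arm they were 384 and 55, 948 and 137, 902 and 139, and 144 and 36. This section gives no calls over all genes for the other fits and comparisons, so those member counts lack that share.

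Values near 0 changed sign. Without libraries over 5% ribosomal RNA, Fpr2 at week 4 against week 2 of the MIR29B arm was -0.15 and the Cxcr2 ratio at week 4 of the scrambled arm 0.01. With a sex term G0s2 at week 4 against week 2 of the scrambled arm was -0.04 and Clec4e in MIR29B against scrambled at week 4 was 0.0001. There Fpr1 was -0.005 without a filter and -0.02 with only the groups compared. With 1 library left out, values in MIR29B against scrambled at week 4 ran from -0.05 to 0.25 (Trem1), -0.14 to 0.46 (G0s2), -0.04 to 0.25 (Csf3r), -0.40 to 0.09 (Cxcr2), -0.15 to 0.21 (Fpr1) and -0.17 to 0.12 (Clec4e). At week 4 against week 2 they ran from -0.03 to 0.25 (Cxcr2), -0.14 to 0.16 (Fpr2) and -0.08 to 0.31 (Tyrobp) in the MIR29B arm, and from -0.01 to 0.52 (Trem1), -0.11 to 0.30 (G0s2), -0.59 to 0.09 (Cxcr2) and -0.21 to 0.32 (Clec4e) in the scrambled arm. At week 4 against week 0 of the scrambled arm they ran from -0.13 to 0.61 (Csf3r) and -0.19 to 0.58 (Cxcr2). The ratios to Csf3r ran from -0.12 to 0.06 (Cxcr2, week 4, scrambled), -0.47 to 0.17 (Fpr1, week 4, MIR29B) and -0.06 to 0.33 (Clec4d, week 4, MIR29B). None of these values was called with all libraries. The causes of these differences were not tested, beyond the fewer samples of some fits. With a coefficient of variation of 0.5 and 3 libraries a group, 2-fold changes were mostly missed in simulated counts.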
